A study of Mus musculus with 30 samples.

Results

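The genes described are those for the protein components of the cytosolic ribosome. Of 56686 genes in the deposited table of TPM values (read abundance corrected for transcript length and scaled to the same total in every library), those annotated as protein-coding with a symbol of the Rpl or Rps series, or Rplp0, Rplp1, Rplp2 or Rpsa, were taken, kinases of the Rps6k series being left out. This gave 87 genes: 46 of the large subunit, 31 of the small subunit, 9 paralogues or retrogenes (Rpl3l, Rpl7l1, Rpl10l, Rpl22l1, Rpl36al, Rpl39l, Rps27l, Rps27rt and Rps23rg1), and Rps19bp1, which encodes a protein that binds RPS19 and is not part of the ribosome. A total of 81 passed the filter on low values (at least 1 TPM in at least 3 libraries) and were tested: all 46 large subunit genes, 29 small subunit genes, 5 paralogues and Rps19bp1. All 81 were above 0 in every library.

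The RNA came from dorsal root ganglia, the clusters of sensory neurons and their glia beside the spinal cord, taken at lumbar levels L3 to L5 of both sides from wild-type male C57BL/6J mice. Mice were perfused with an RNA preservative on day 2 or day 8 after saline, after the CVAD regimen (cyclophosphamide, vincristine, doxorubicin and dexamethasone given together in the treatment of leukaemia and lymphoma) or after 1 of its drugs alone. There were 10 groups of 3 libraries: saline, CVAD, cyclophosphamide (spelled "Cyclophoshamide" in the sample labels) and dexamethasone on both days, and vincristine and doxorubicin on day 8 only. Neither the doses nor the ages are in the labels, and nothing in them says whether the 3 libraries of a group came from separate mice, so p-values measure the spread between libraries, which may be technical. The summed TPM of 10 sensory neuron genes lay between 1655 and 2307 in all libraries, and all 10 were detected.

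A ribosome is built from a small subunit, which reads the mRNA, and a large subunit, which joins amino acids, each an RNA core dressed with proteins that are mostly needed once per particle. The genes for these proteins lie scattered over the genome, are transcribed in every cell type, and are among the most copied by retrotransposition, so that mammalian genomes carry many processed pseudogenes of nearly the same sequence. Most of their mRNAs begin with a C followed by an unbroken run of pyrimidines, the 5′ terminal oligopyrimidine (TOP) motif, through which the growth signalling kinase mTOR controls their translation. In sensory neurons, ribosomes and the mRNAs for their proteins are found in the axon as well as in the cell body.

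The choice by symbol did not use the sequence at the start of the genes, so pyrimidine runs near the start are shown first. RefSeq start windows (assembly GRCm38.p6) were found for 67 of the 87 genes. A run of at least 8 bases that are all C or T, touching the 10 bases on either side of the annotated start, was present on the coding strand of 31 of the 79 windows of these genes, or 39.2%, against 13.7% of 32851 windows of all genes. On the other strand the shares were 5.06% and 15.1%. At least 1 start with the run was found for 30 of the 67 genes (44.8%), against 15.8% of 27025 genes with a window. Annotated starts can lie some bases from the true cap, so a missing run says only that these letters are not in this window. A run found in this way need not begin with C or lie at the cap, so it is not by itself a TOP motif. The 30 bases around the start are printed for 7 of the genes that hold the run and are named again below, then for the 3 genes with the smallest p-values in the CVAD comparison on day 2. The run is in capitals.
Rps27 (chr3:90213634-90213663, minus strand): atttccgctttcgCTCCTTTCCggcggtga
Rpl28 (chr7:4792950-4792979, plus strand): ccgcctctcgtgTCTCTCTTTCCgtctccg
Rpl38 (chr11:114668565-114668594, plus strand): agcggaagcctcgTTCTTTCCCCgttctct
Rpl18 (chr7:45718056-45718085, plus strand): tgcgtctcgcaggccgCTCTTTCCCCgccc
Rps15a (chr7:118116133-118116162, minus strand): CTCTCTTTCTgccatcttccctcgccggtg
Rpl22l1 (chr3:28805493-28805522, plus strand): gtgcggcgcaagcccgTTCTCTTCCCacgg
Rps24 (chr14:24490663-24490692, plus strand): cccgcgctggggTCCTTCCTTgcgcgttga
Rps23 (chr13:90923107-90923136, plus strand): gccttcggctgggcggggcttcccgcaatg
Rpl11 (chr4:136053379-136053408, minus strand): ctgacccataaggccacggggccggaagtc
Rpl5 (chr5:107900513-107900542, plus strand): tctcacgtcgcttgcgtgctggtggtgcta
Rps24 has a further annotated start without the run.

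Of the 77 subunit genes, 2 were listed at 0 TPM in all 30 libraries. These were Rps2 (chromosome 17, 24937090 to 24940903, GRCm39), which lines the mRNA entry channel of the small subunit, and Rps25 (chromosome 9, 44318436 to 44321724), a small subunit protein used by some viral internal ribosome entry sites. Both are subunit proteins of every cytosolic ribosome, and each lay in a long stretch of the table where every gene was at 0. Around Rps2, 244 consecutive rows (151 protein-coding) between Vmn2r111 and Gm34455 were at 0 in every library, from position 22819932 to 26683131, or 3863.2 kb. Around Rps25, 126 rows (53 protein-coding) between Oaf and Dscaml1 were at 0, from 43154896 to 45343028. The chromosome 17 stretch also held the muscle paralogue Rpl3l and 2 genes of mTOR signalling, Tsc2 and Mlst8, and that on chromosome 9 held the T cell receptor genes Cd3d, Cd3e and Cd3g. Within 5 Mb of Rps2, 173 of 272 protein-coding genes were at 0 everywhere, and within 5 Mb of Rps25, 78 of 141. The zeros of Rps2, Rps25 and Rpl3l were therefore taken as listed values, not as measured absence. Processed pseudogenes of both subunit genes did carry signal: 71 copies of Rps2 summed to a mean of 300.04 TPM and 17 copies of Rps25 to 403 TPM, of which Rps25-ps1 alone had 219.8 TPM at 98.93% identity to the Rps25 coding sequence.

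**Figure D1:**
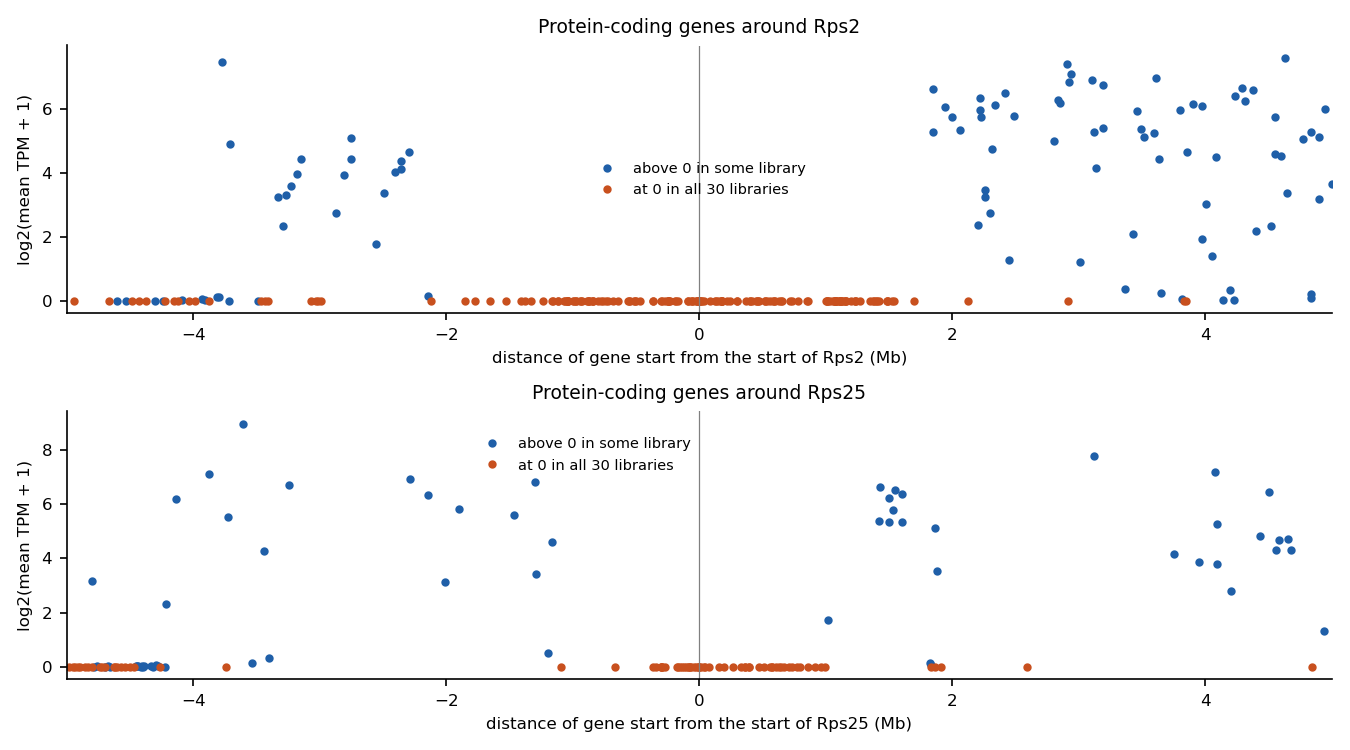
Protein-coding genes within 5 Mb of Rps2 (top) and Rps25 (bottom): horizontal axis, distance of each gene's start from that of the named gene in Mb; vertical axis, log2 of mean TPM + 1 over 30 libraries. Orange points are genes at 0 in all 30 libraries, and they fill the middle of both panels, with expressed genes (blue) on either side.

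Among the 75 tested subunit genes, mean TPM over the 30 libraries ran from 31.8 for Rps15a to 227 for Rplp1, a ratio of 7.15, with a median of 102. Among the highest were Rplp1 (227 ± 18.9 TPM, SD, n = 30), an acidic protein of the stalk that recruits elongation factors, Rpl41 (178 ± 14.8), which encodes one of the smallest proteins of the cell, and Rpl13a (172 ± 12.9), known also as an interferon-gated repressor of inflammatory mRNAs. The stalk partners of Rplp1, Rplp0 and Rplp2, were at 163 ± 10.4 and 164 ± 14.4 TPM, below Rplp1. The 5 lowest tested genes were Rps27rt (6.72 ± 1.29 TPM), Rps19bp1 (24.5 ± 2.95), Rps15a (31.8 ± 2.85), Rps20 (36.5 ± 3.38) and Rpl27 (40.9 ± 3.95). Rplp1 was the highest subunit gene in 26 libraries, and Rps15a was the lowest in 27 and Rps20 in 3. The order of the 75 genes was thus close to the same in all libraries, with a Spearman rho between pairs of libraries of 0.88 to 0.98, a description over genes that share their libraries. Against 15314 tested protein-coding genes, whose median was 30.5 TPM, 79 of the 81 genes lay above the median and 39 above the 90th percentile of 99.1 TPM.

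**Figure D2:**
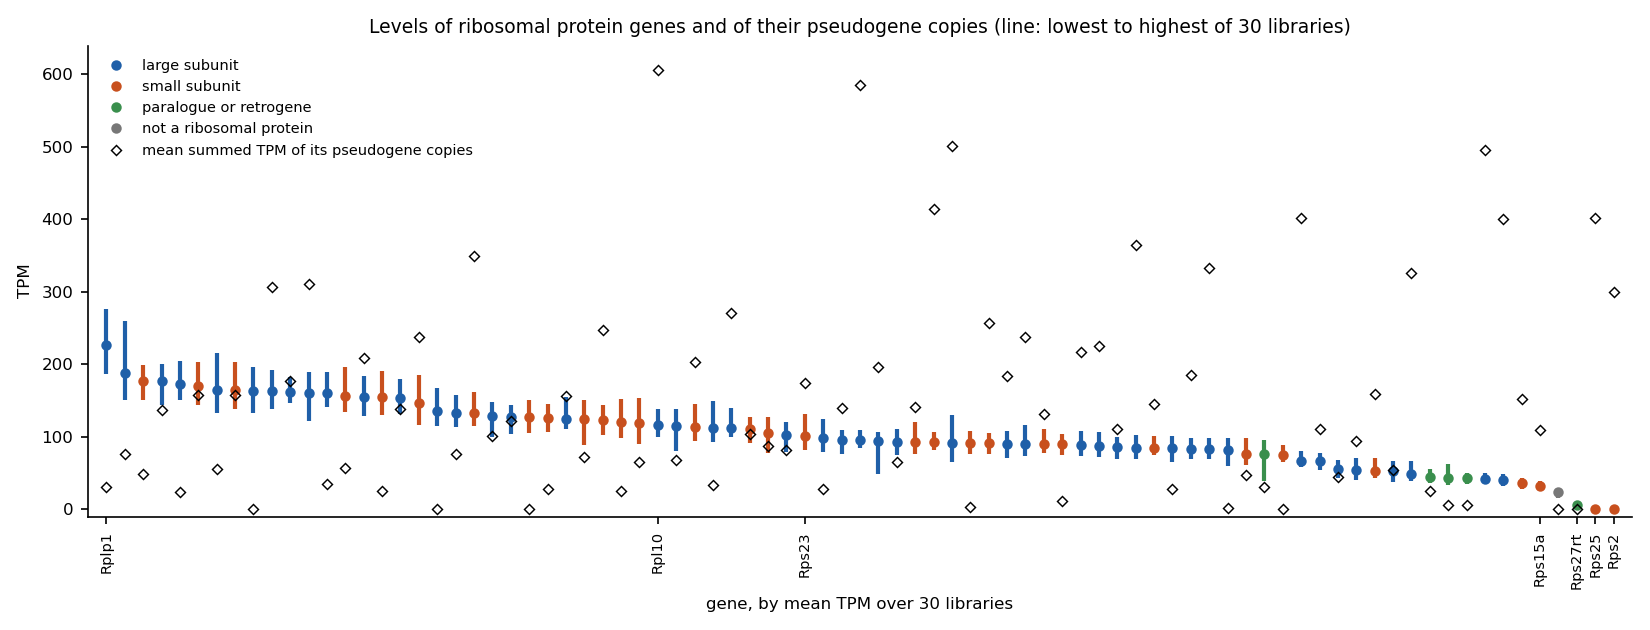
Mean TPM over 30 libraries of the 81 tested genes and of Rps2 and Rps25, in order of level with a few genes labelled (points, coloured by subunit; vertical lines, lowest to highest library), with the mean summed TPM of each gene's pseudogene copies (open diamonds). Gene levels fall from 227 TPM for Rplp1 to 0 for Rps25 and Rps2, while the diamonds reach 606 TPM for Rpl10 and follow no such order.

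The pseudogene copies carried more TPM than the genes. Of 13656 pseudogene rows, 1452 matched the coding sequence of 1 of the genes at 85% identity or more over at least 50% of its length, and 1153 of them were above 0 in some library. Their sum averaged 12748 ± 1085 TPM per library (SD, n = 30) against 8540 ± 454 for the 87 genes, so copies held 59.9% of the combined signal. Copies exceeded the gene for 41 of the 77 subunit genes. The largest sums were for Rpl10, a late-joining large subunit protein (116 TPM, copies 606), Rpl15 (95.4 and 585), Rpl23a, which sits at the exit tunnel (92.3 and 501), Rpl35a (41.4 and 495) and Rps6, the classic substrate of the S6 kinases (92.7 and 415). At the other end, Rpl8, at the peptidyl transferase centre (135 TPM), had no copy, and Rplp2 (164 TPM) and Rps3 (75.8 TPM) had copies summing to 0.582 and 0.383 TPM. Adding copies to genes did not bring the levels of the subunit genes closer together: the coefficient of variation over the 75 tested genes was 36.8% for the genes alone and 51.4% with their copies. Reads that match a gene and its copies equally well can be split between them in ways that the sources do not state, so the level of each of these genes in TPM is uncertain wherever its copies are abundant, and each comparison was repeated on the sums.

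Rpl36al, the intron-poor twin of Rpl36a, averaged 75.9 TPM and was above its parent (52.8 TPM) in 28 of 30 libraries, with a ratio of 0.67 to 2.19. Rpl22l1 (44.8 TPM), which can stand in for Rpl22 (82.4 TPM), had a ratio to its parent of 0.46 to 0.79. Rps27l (43.3 TPM), a p53 target in other cells, lay at 0.37 to 0.62 of Rps27 (90.2 TPM), and Rpl7l1 (42.8 TPM), a factor of large subunit assembly, at 0.19 to 0.34 of Rpl7 (165 TPM). Rps27rt, a retrogene of Rps27, was at 0.042 to 0.10 of it. The testis paralogues Rpl10l (parent Rpl10) and Rpl39l (parent Rpl39, 66.6 TPM) were above 0 in 1 library each, at 0.339 TPM in dexamethasone day 2 replicate 2 and at 0.776 TPM in CVAD day 2 replicate 1. Rps23rg1, a retroposed copy of Rps23, was at 0 in 22 libraries and reached 1.93 TPM in cyclophosphamide day 2 replicate 1. Rpl3l was listed at 0 beside its parent Rpl3 at 163 TPM.

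Rps27l was not called in any of the 18 comparisons made. Its values were 46.3, 41.8 and 50.9 TPM in saline on day 8, 42.2, 51.3 and 43.7 in CVAD and 55.1, 46.2 and 39.0 in doxorubicin, and the groups overlap. Its largest log2 difference among the 8 comparisons with saline of the same day was 0.18 ± 0.13 (SE, CVAD on day 2, adjusted p = 0.79 by limma). Vincristine replicate 3 had the highest value of all, 62.6 TPM, beside 48.3 and 42.3 in its other libraries.

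Summed over the 87 genes, the ribosomal protein share of each library was narrow. It ranged from 7469 TPM in saline day 2 replicate 1 to 9705 TPM in vincristine day 8 replicate 3. As a share of the TPM of protein-coding genes it ranged from 1.21% in CVAD day 8 replicate 1 to 1.35% in saline day 8 replicate 3, with group means from 1.23% in CVAD on day 8 to 1.30% in saline on day 8. Group means ran from 8099 ± 553 TPM (SD, n = 3) in saline on day 2 to 8846 ± 262 in saline on day 8. In CVAD the sum was 8601 ± 312 on day 2 and 8440 ± 551 on day 8, in cyclophosphamide 8538 ± 623 and 8524 ± 374, in dexamethasone 8505 ± 192 and 8589 ± 518, in vincristine 8774 ± 806 and in doxorubicin 8485 ± 431. The ratio of large to small subunit sums was 1.61 ± 0.028 (n = 30), between 1.54 and 1.69. Within groups, the SD of log2(TPM + 1) of the tested genes had a median of 0.136, against 0.123 for 7277 other protein-coding genes of the same range of levels. Among the most variable were Rpl36al (0.277), Rps27rt (0.259), Rpl36a (0.22) and Rpl18 (0.206).

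**Figure D3:**
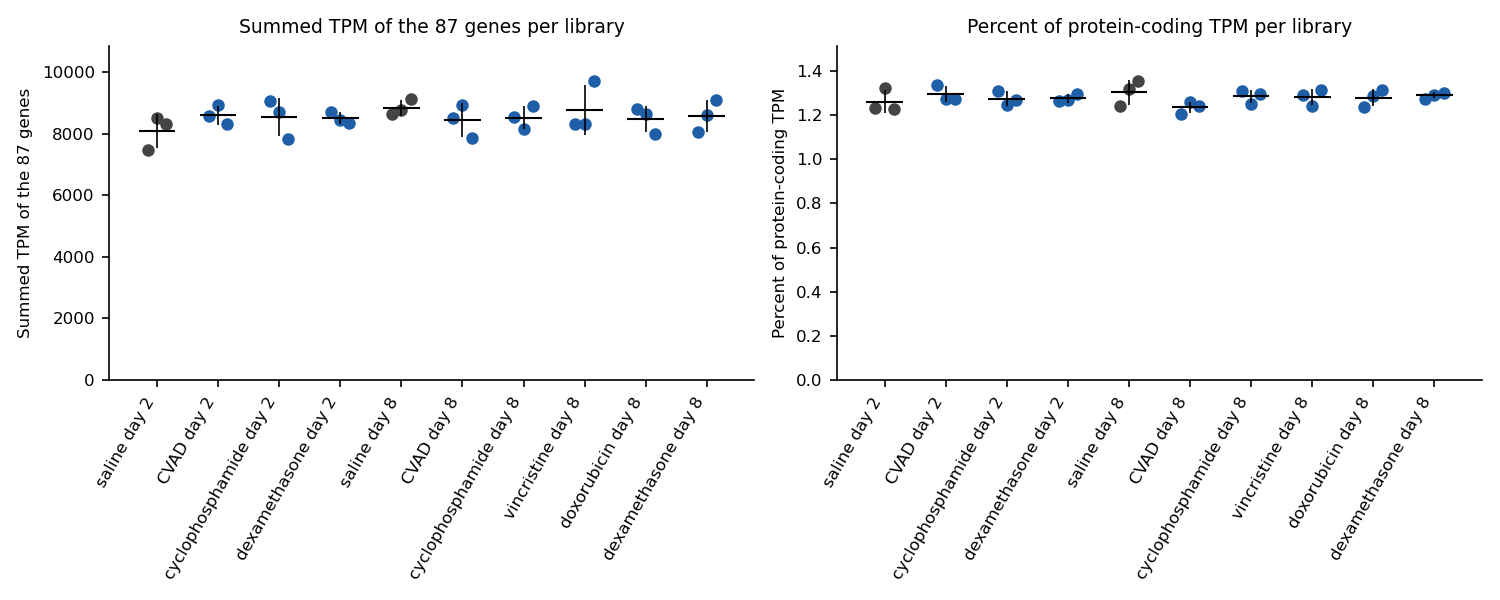
Summed TPM of the 87 genes (left) and their percent of protein-coding TPM (right) in each library, by group; points are libraries (grey, saline; blue, drugs), horizontal lines group means and vertical lines SD, n = 3. The sums lie between 7469 and 9705 TPM and the groups overlap.

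Saline day 2 replicate 1 stood apart in the sums of TPM and enters every comparison with saline on day 2. Protein-coding genes at large held 60.5% of its TPM, the lowest share of all libraries. As a percent of protein-coding TPM its ribosomal protein sum was 1.23%, inside the range over libraries of 1.21% to 1.35%. This library also had the highest share of the small cytoplasmic RNA Rn7s2 (16.4% of TPM, range over libraries 7.08% to 16.4%). Its effect was largest in Rpl17, a protein at the exit tunnel, which was at 49.2 TPM there and at 92.0 and 92.4 in the other saline libraries of that day. The table keeps no read depth, since TPM removes it, so no counting interval can be given. Genes in it number 25342 to 27972 above 0 per library.

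The comparison of each drug with saline on day 8 asks whether ribosomal protein mRNAs had changed when all 5 treatments could be set side by side. None of the 81 tested genes passed the threshold (limma across all 25434 tested genes, Benjamini-Hochberg adjusted p under 0.05) in any of the 5. The share of all genes called was 0% for CVAD, 0.00786% for cyclophosphamide and 0% for vincristine, doxorubicin and dexamethasone. At an unadjusted p under 0.05 there were 3 of the 81 genes in CVAD (5.98% of all genes), 4 in cyclophosphamide (5.76%), 1 in vincristine (3.44%), 3 in doxorubicin (3.35%) and 0 in dexamethasone (3.26%). Of these, 0, 2, 0, 1 and 0 were higher in the same order, beside 3.2%, 1.19%, 2.04%, 1.48% and 1.25% of all genes. The 95% interval of a single gene's difference had a median half-width over the 81 genes of 0.22 on the log2 scale, which is not a limit of detection. All comparisons of one day share their 3 saline libraries and are not independent.

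The medians of the 81 genes were below 0 in the 5 comparisons of day 8, with no gene past the threshold. In CVAD 14 of the 81 genes were higher than in saline, beside 54.2% of all genes, with a median log2 difference of -0.066 where all genes had 0.017. The counts of higher genes were 17 in cyclophosphamide (37.9% of all genes, medians -0.060 and -0.041), 27 in vincristine (54.7%, -0.031 and 0.016), 17 in doxorubicin (43.9%, -0.075 and -0.018) and 27 in dexamethasone (43%, -0.063 and -0.023). The medians of the large and small subunit genes were -0.066 and -0.082 in CVAD, -0.070 and -0.056 in cyclophosphamide, -0.032 and -0.046 in vincristine, -0.070 and -0.084 in doxorubicin and -0.073 and -0.046 in dexamethasone, and their difference was not tested. After median-ratio scaling, which moves the median of all genes by at most 0.041 in these 5 comparisons, the counts were 11, 33, 22, 22 and 31 in the same order and the medians -0.090, -0.014, -0.059, -0.055 and -0.043. The vincristine median turned to 0.0066, 0.0034 or 0.00091 without vincristine replicate 1 or 2 or saline replicate 3, and to 0.022 on the sums with copies. CVAD kept its sign without each library, from -0.11 without CVAD replicate 2 to -0.024 without CVAD replicate 3. The cyclophosphamide median was -0.031 without its replicate 2 and -0.10 without its replicate 3, that of doxorubicin -0.020 without its replicate 3 and -0.047 without saline replicate 3, and that of dexamethasone -0.027 without its replicate 1, -0.10 without its replicate 3 and -0.034 without saline replicate 3. Markers of other cell types differed beside them in CVAD, with medians of -1.84 for granulocytes, -1.05 for adipocytes, -1.03 for dividing cells, -0.74 for B cells and 1.07 for skeletal muscle, none of their genes called, and their part in the result was not tested.

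On day 8, the genes of smallest p in CVAD were Rps23, Rpl38 and Rpl19. Rpl38, which is needed for translation of some Hox mRNAs, was at 71.0, 98.8 and 72.1 TPM in CVAD and 93.5, 109 and 92.1 in saline, a log2 difference of -0.29 ± 0.12 (adjusted p = 0.76). CVAD replicate 2 lies inside the saline range, so the groups overlap. Rpl19, a bridge between the subunits, was at 75.4, 98.8 and 82.0 TPM against 99.3, 103 and 90.9, again with replicate 2 inside the saline range (-0.20 ± 0.096, adjusted p = 0.82).

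Under cyclophosphamide on day 8 the 3 were Rps23, Rpl36al and Rpl22. Rpl36al was at 86.7, 83.5 and 88.1 TPM against 46.1, 47.7 and 83.8 in saline, a log2 difference of 0.59 ± 0.21 (adjusted p = 0.69), with saline replicate 3 among the cyclophosphamide values. Rpl22, which also binds viral small RNAs, was at 62.0, 62.4 and 83.5 TPM beside saline at 81.8, 81.8 and 95.5 (-0.32 ± 0.12, adjusted p = 0.71), and its library of replicate 3 overlaps with saline. Rps23 was at 92.4, 88.4 and 94.0 TPM against 101.9, 101 and 120.0, without overlap (-0.23 ± 0.080, adjusted p = 0.69).

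In doxorubicin the smallest p-values were those of Rpl9, Rpl36al and Rpsa. Rpl9 was at 99.6, 126 and 116 TPM against 142, 143 and 128 in saline, every doxorubicin library being lower (-0.28 ± 0.097, adjusted p = 1). Rpsa, which also names a laminin receptor, was at 134, 127 and 119.8 TPM beside saline at 139.9, 144 and 152 (-0.19 ± 0.085, adjusted p = 1), and Rpl36al at 74.9, 73.8 and 91.4 against the 3 saline values above (0.48 ± 0.21, adjusted p = 1). Between doxorubicin and saline, 1 of the 81 genes was higher and 7 lower without overlap, beside 2.44% and 3.55% of all genes. The counts were 1 and 3 in CVAD (5.41% and 4.58%), 1 and 7 in cyclophosphamide (2.24% and 7.25%), 3 and 1 in vincristine (3.46% and 2.72%) and 1 and 4 in dexamethasone (2.01% and 4.51%).

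Vincristine, a microtubule poison, gave small p-values for Rpl8 and Rpl18. Rpl8 was at 120.3, 123 and 146 TPM beside saline at 139, 155 and 150.1 (-0.19 ± 0.094, adjusted p = 1). Rpl18 was at 97.4, 105 and 124 TPM against 138, 136 and 129.8, every vincristine library being lower (-0.31 ± 0.16, adjusted p = 1). Dexamethasone on day 8 gave Rps19, Rpsa and Rps23, with log2 differences of -0.23 ± 0.11, -0.17 ± 0.085 and -0.15 ± 0.080 (adjusted p = 1 for each). Rps19, the most often mutated gene of Diamond-Blackfan anaemia, was at 76.6, 93.5 and 102 TPM there against 89.8, 110.5 and 120.3.

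Day 2 asked how early any change is seen. Rps23, whose protein (uS12) lies at the decoding centre of the small subunit (chromosome 13, 91071077 to 91073069, GRCm39), was the only one of the 81 genes called against saline. It rose in CVAD, at 131, 120.1 and 109 TPM against 81.7, 95.8 and 89.2 in saline, and every CVAD library lay above every saline library. The log2 difference was 0.43 ± 0.080 (SE; 1.35-fold on the TPM + 1 scale; adjusted p = 0.0443 by limma), beside 0.0393% of all genes called higher. The sum of the gene and its 14 pseudogene copies was called too, at 236 ± 24.1 TPM in saline and 345 ± 18.3 in CVAD (SD, n = 3; limma, log2 difference 0.55 ± 0.095, adjusted p = 0.0480). The call was lost without CVAD replicate 1 or 2 or any 1 of the saline libraries (adjusted p = 0.0858 to 0.289), under median-ratio scaling (0.35, adjusted p = 0.141) when only day 2 libraries (adjusted p = 0.369) or only protein-coding genes (adjusted p = 0.201) were fitted, without the filter on low values (adjusted p = 0.0730) and with a term for libraries 1 to 8 (0.20, adjusted p = 1). That term is estimated from dexamethasone alone, since CVAD and cyclophosphamide on day 2 lie wholly inside these libraries and saline wholly outside. The labels do not name libraries 1 to 8 as a batch.

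Rps23 had the smallest p of the 81 genes in the other day 2 comparisons too, which use the same saline libraries. In cyclophosphamide it was at 111, 106 and 119.7 TPM (0.33 ± 0.080, adjusted p = 0.228), again above every saline library, and in dexamethasone at 117, 104 and 93.9 TPM (0.23 ± 0.080, adjusted p = 0.822), where replicate 3 overlaps with saline. Between CVAD and cyclophosphamide on day 2 it differed by 0.096 (95% interval -0.070 to 0.26) and between CVAD and dexamethasone by 0.20 (0.033 to 0.36, adjusted p = 1). Ordered by group mean, Rps23 ran from 88.9 ± 7.02 TPM in saline on day 2 through 91.6 ± 2.90 in cyclophosphamide, 93.8 ± 2.73 in CVAD, 96.7 ± 3.23 in dexamethasone, 99.8 ± 3.71 in doxorubicin and 99.9 ± 2.63 in vincristine, all on day 8, to 104.8 ± 11.5 in dexamethasone on day 2, 108 ± 10.7 in saline on day 8, 112 ± 6.87 in cyclophosphamide on day 2 and 120.3 ± 10.99 in CVAD on day 2. The saline groups of the 2 days thus stood near opposite ends.

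**Figure D4:**
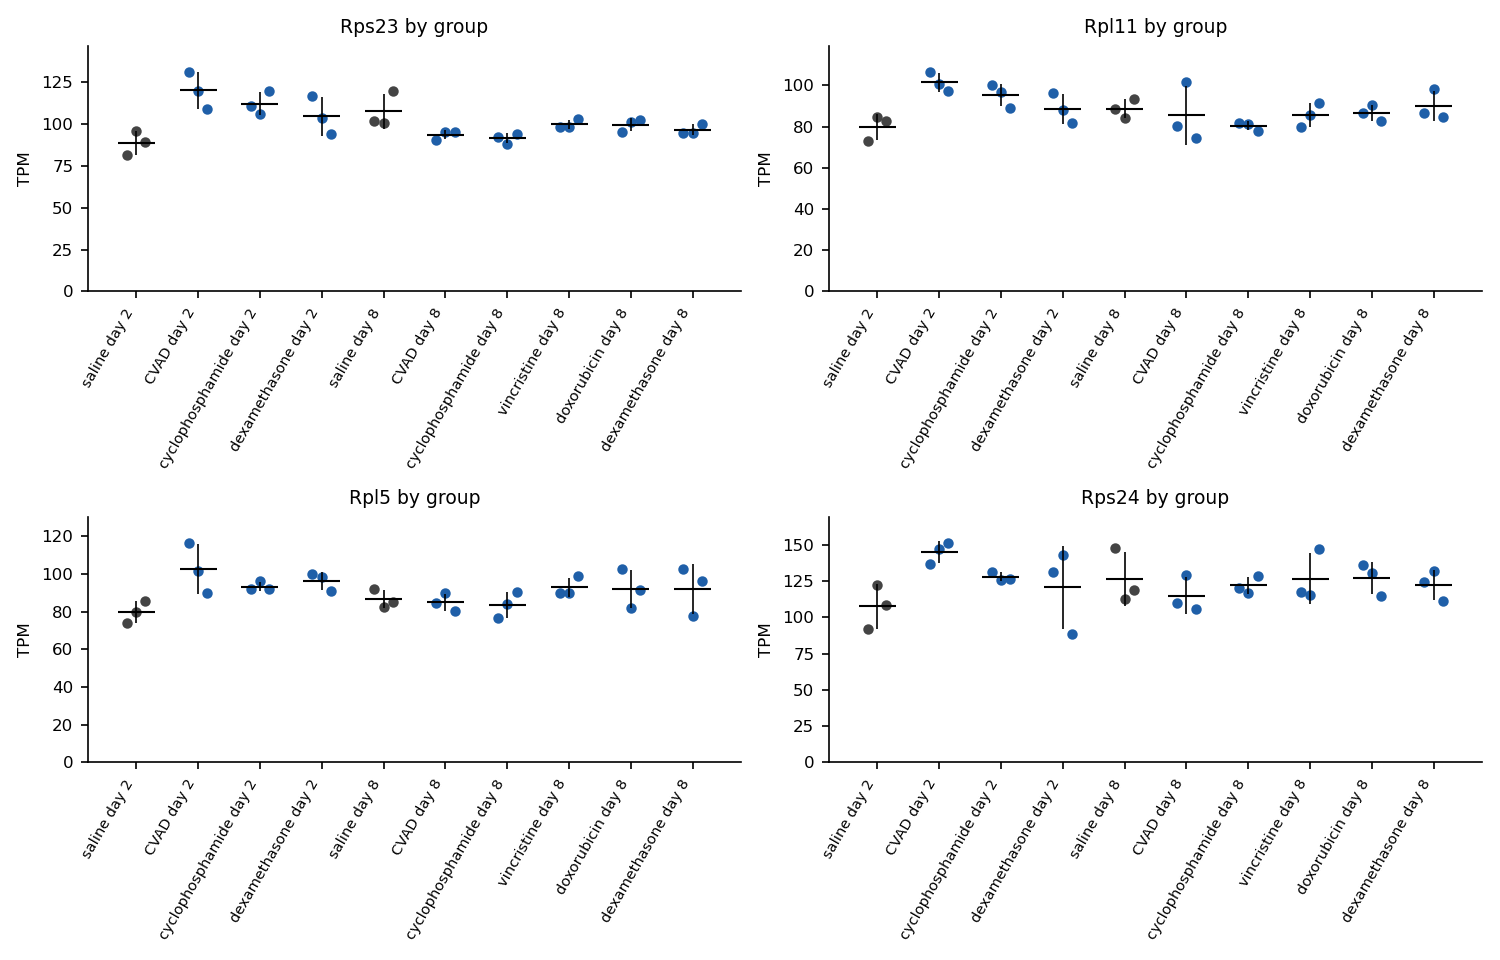
TPM of Rps23, Rpl11, Rpl5 and Rps24 in each library, by group (points; grey, saline; blue, drugs), with group means (horizontal lines) and SD (vertical lines), n = 3; each axis starts at 0. For Rps23 the CVAD day 2 libraries (109 to 131 TPM) lie above the saline day 2 libraries (81.7 to 95.8 TPM), and the saline day 8 libraries (101 to 120.0 TPM) do too.

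Next to Rps23 on day 2 in CVAD came Rpl11 and Rpl5, which together carry the 5S ribosomal RNA and, when unassembled, restrain Mdm2 and so stabilise p53. Rpl11 was at 106.5, 100.4 and 97.4 TPM against 72.8, 84.6 and 82.5 in saline (0.34 ± 0.091, adjusted p = 0.182), and Rpl5 at 116.5, 101.5 and 90.03 against 74.2, 79.6 and 85.5 (0.35 ± 0.099, adjusted p = 0.235). In both, each CVAD library lay above each saline library, yet neither passed the threshold. Rps24, an assembly protein of the small subunit chosen here after its values were seen, had the largest difference of the 81 genes, at 137, 147 and 151 TPM beside saline at 91.8, 122 and 109 (0.44 ± 0.14, adjusted p = 0.329). Cyclophosphamide on day 2 gave Rps23, Rpl19 and Rpl23a: Rpl19 was at 110.8, 111 and 99.8 TPM beside saline at 84.2, 84.3 and 88.1 (0.32 ± 0.096, adjusted p = 0.382), and Rpl23a at 130.1, 102 and 91.3 against 78.9, 85.9 and 81.9 (0.37 ± 0.13, adjusted p = 0.517). Dexamethasone gave Rps23, Rpl5 (100.02, 98.2 and 91.0 TPM; 0.27 ± 0.099, adjusted p = 0.847) and Rpl28 (184, 176 and 141 against 129, 154 and 137; 0.25 ± 0.10, adjusted p = 0.891).

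Across the 81 genes, day 2 levels were mostly above saline, as were those of genes at large. In CVAD 60 of the 81 were higher (65.9% of all genes), in cyclophosphamide 64 (64.7%) and in dexamethasone 59 (65.3%), with medians of 0.099, 0.074 and 0.072 where all genes had 0.069, 0.062 and 0.057. The shares of genes called in either direction were 0.0432%, 0.0118% and 0.00393%, and 0 of the 81 were called by limma in cyclophosphamide and dexamethasone. At an unadjusted p under 0.05 there were 13 genes in CVAD (8.19% of all genes), 8 in cyclophosphamide (7.51%) and 6 in dexamethasone (5.37%), all of them higher, beside 6.97%, 5.98% and 4.31% of all genes that were higher at that p. Without overlap between the groups, 17 genes were higher in CVAD (11.3% of all genes), 10 in cyclophosphamide (8.52%) and 6 in dexamethasone (7.03%). In the same order 2, 0 and 1 were lower without overlap, beside 2.27%, 2.95% and 1.88% of all genes. Median-ratio scaling lowered the counts of higher genes to 45, 41 and 43 and the medians to 0.021, 0.00028 and 0.0044, and leaving out saline replicate 1 lowered the medians to 0.045, 0.021 and 0.020. Genes of spinal cord glia and neurons, a tissue next to the ganglia, summed to 26.01 to 185 TPM in saline, 35.3 to 129 in CVAD, 7.03 to 29.3 in cyclophosphamide and 6.50 to 39.1 in dexamethasone on day 2, and their part in the result was not tested.

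The day 2 comparisons were repeated on the sums of genes with their copies, whose medians were 0.16 in CVAD, 0.11 in cyclophosphamide and 0.12 in dexamethasone. Of 83 sums tested, 73 were higher in CVAD (65.8% of all genes in that fit), 65 in cyclophosphamide (64.6%) and 67 in dexamethasone (65.3%), and 32, 19 and 17 had an unadjusted p under 0.05, beside 7.9%, 7.31% and 5.17% of all genes. Median-ratio scaling and leaving out a library, which lowered the medians of the genes alone, were not tried on the sums. Only the sum for Rps23 in CVAD was called (0.0241% of all genes). The copies averaged 1.62 ± 0.076 TPM per TPM of the genes in CVAD on day 2 (SD, n = 3) and 1.43 ± 0.026 in saline on day 2. In cyclophosphamide and dexamethasone on that day the ratio was 1.53 ± 0.21 and 1.54 ± 0.15. It was 1.58 ± 0.14 in libraries 1 to 8 (n = 8) and 1.46 ± 0.11 in libraries 9 to 30 (n = 22). CVAD on day 2 lies wholly in libraries 1 to 8 and saline wholly outside, so drug and library set cannot be told apart there. Rps2 and Rps25, measured by their copies alone, had log2 differences of 0.14 ± 0.094 and 0.31 ± 0.11 in CVAD (adjusted p = 0.778 and 0.438).

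The saline groups of the 2 days were compared as well. On day 8, 74 of the 81 genes were above their day 2 level, beside 64.5% of all genes, with a median of 0.14 where all genes had 0.067; none was called by limma (0.00393% of all genes), and 11 had an unadjusted p under 0.05 (6.93%). After scaling the count was 64 and the median 0.066, and without saline day 2 replicate 1 the median was 0.089. Marker medians were 1.39 for granulocytes (7 of 7 genes higher), 1.02 for dividing cells (6 of 6), 0.84 for adipocytes (4 of 4), 0.75 for B cells (6 of 6), -0.96 for skeletal muscle (0 of 7) and -1.73 for spinal cord (0 of 6), none of their genes called, and their part in the result was not tested. Rps23 led here as well, at 101.9, 101 and 120.0 TPM on day 8 against 81.7, 95.8 and 89.2 on day 2 (0.27 ± 0.080, adjusted p = 0.456). Without overlap, 22 of the 81 genes were higher on day 8 (11.2% of all genes) and 0 lower (2.09%). The day of collection and any other difference between the libraries of the 2 days cannot be told apart.

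**Figure D5:**
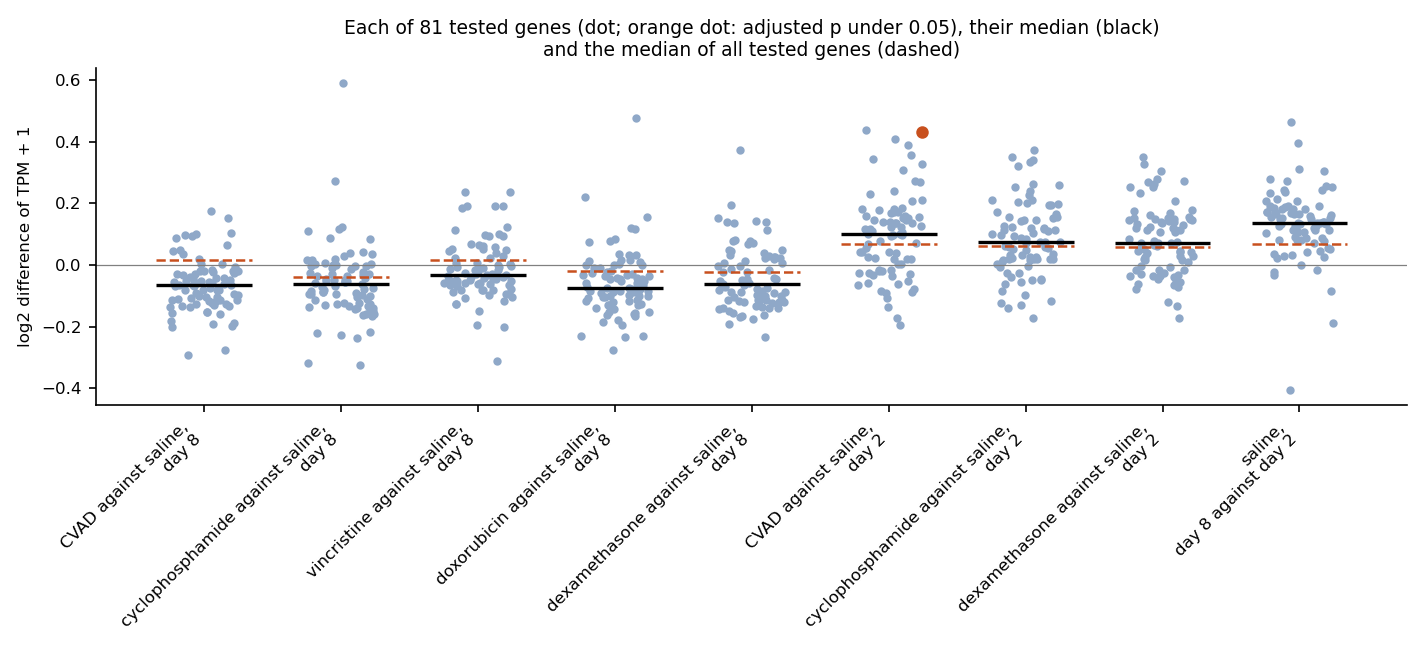
Log2 differences of TPM + 1 for the 81 tested genes (dots) in the 8 comparisons with saline of the same day and between the saline groups; black lines, their medians; dashed orange lines, medians of all 25434 tested genes. Medians lie below 0 in the 5 comparisons of day 8 and above 0 in the 3 of day 2 and in saline, and Rps23 in CVAD on day 2 is the only called gene (large orange dot).

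The drug effect on day 8 was set against that on day 2 in 1 model, for the 3 treatments given on both days. In CVAD Rps23 fell, with a difference of effects of -0.62 ± 0.11 (adjusted p = 0.0298 by limma; 0.059% of all genes called lower, 0.0826% in either direction). It was above saline on day 2 and, at 90.7, 95.3 and 95.5 TPM against 101.9, 101 and 120.0, below every saline library on day 8 (-0.19 ± 0.080, adjusted p = 0.743). The saline level itself lay 0.27 higher on day 8, and it enters the difference as strongly as the CVAD level does. In cyclophosphamide the same difference was -0.56 ± 0.11 (adjusted p = 0.0890) and in dexamethasone -0.38 ± 0.11 (adjusted p = 0.932), with 0 of the 81 genes called in either (0% of all genes). The CVAD call was lost under median-ratio scaling (-0.57, adjusted p = 0.0649) and without CVAD day 2 replicate 1 or 2, saline day 2 replicate 1, any 1 CVAD library of day 8 or saline day 8 replicate 3 (adjusted p = 0.0655 to 0.107), and with the term for libraries 1 to 8 (-0.40, adjusted p = 1).

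Genes of other cell types differed between these groups too. The summed TPM of 9 genes of granulocyte precursors and neutrophils, 2 of them (S100a8 and S100a9) listed at 0 everywhere, was 141 to 275 in CVAD and 89.1 to 149 in saline on day 2, and 61.3 to 89.4 in CVAD and 204 to 345 in saline on day 8. In the CVAD day 8 minus day 2 difference 3 of the 7 tested granulocyte genes were called lower, with a median of -2.41. The medians were -1.35 for dividing cells (0 of 6 genes above 0), -1.32 for adipocytes (0 of 4), -1.10 for bone and cartilage (0 of 5) and -0.43 for B cells (1 of 6), and 1.85 for erythroid cells (4 of 6) and 1.52 for skeletal muscle (7 of 7), none of whose genes was called. Libraries of 1 group differed widely in the last 2 lists. Summed erythroid TPM was 1.43 to 132 in CVAD on day 2 and 0.818 to 166 in saline on day 8. Summed muscle TPM was 38.4 to 651 and 12.7 to 457 in the same groups. The part of these cell types in the result was not tested. In whole ganglia, a lower share of a cell type and less RNA per cell cannot be told apart.

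For all 81 genes the difference of effects leaned down: 15 were above 0 in CVAD (42.2% of all genes), 16 in cyclophosphamide (32.5%) and 18 in dexamethasone (35.4%), with medians of -0.16, -0.15 and -0.13 where all genes had -0.046, -0.11 and -0.083. An unadjusted p under 0.05 was reached by 15, 10 and 4 genes (8.63%, 9.55% and 4.92% of all genes). After median-ratio scaling the counts above 0 were 23, 35 and 29 and the medians -0.10, -0.026 and -0.043, while the median of all genes in cyclophosphamide moved from -0.11 to 0.000067.

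CVAD was also compared with each of its drugs on the same day, to see whether the combination differed from its parts. None of the 81 genes was called by limma in the 6 comparisons; of all genes, 0.00393% were called against cyclophosphamide on day 2 and 0% in the other 5. At an unadjusted p under 0.05 there were 2 genes against cyclophosphamide (5.34% of all genes), 1 against vincristine (3.48%), 0 against doxorubicin (4.8%) and 2 against dexamethasone (4.94%) on day 8, and 0 against cyclophosphamide (3.83%) and 3 against dexamethasone (3.66%) on day 2. Medians lay between -0.049, against vincristine, and 0.020, against dexamethasone on day 2, and after median-ratio scaling between -0.086, against cyclophosphamide on day 8, and 0.014, against cyclophosphamide on day 2. Against cyclophosphamide on day 8, 37 of the 81 genes were higher in CVAD (66% of all genes), with a median of -0.016 before scaling, and against dexamethasone on day 8 the median went from -0.021 to -0.065. The largest 95% bound of any single gene in these comparisons was 0.93, against cyclophosphamide on day 8. Equality was not tested for any gene.

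Fau, which makes RPS30 as a fusion with a ubiquitin-like protein, and Rack1, a scaffold on the head of the small subunit, fall outside the choice by symbol. In CVAD their log2 differences from saline were -0.012 and 0.054 on day 2 and -0.015 and -0.072 on day 8, and neither was called by limma in any of the 18 comparisons. Of 26 translation factors, 38 tested genes of ribosome biogenesis, 17 tested genes for the control of ribosomal protein mRNAs and growth signalling, and 76 tested genes of the mitochondrial ribosome, 0 were called in any of the 18 comparisons. Over all 25434 tested genes at most 21 were called in 1 comparison, so a count of 0 says little about these lists. For CVAD on day 8 their medians were -0.043, 0.070, 0.0025 and 0.011, beside -0.066 for the 81 ribosomal protein genes and 0.017 for all genes, and on day 2 they were 0.047, 0.097, 0.030 and 0.061, beside 0.099 and 0.069.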

How the data were processed

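TPM values per gene, estimated by the authors and deposited as 1 table of 56686 genes and 30 libraries, were used as given. Per the labels' protocols, RNA was depleted of ribosomal RNA and made into stranded libraries with random primers. Per the submitters' processing notes, StringTie 2.2.1, the aligner STAR 2.7.10b and, for read quality, FastQC 0.12.1 were used. Both GRCm39 and mm10 appear there without a role, and the table's coordinates are those of GRCm39. How reads that match several places were shared is not given in the sources used here. TPM keeps no read depth, so the depth is unknown.

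The genes and all lists were chosen with earlier results of these data known. Log2(TPM + 1) of the 25434 genes with at least 1 TPM in at least 3 libraries was fitted with limma 3.58.1 (R 4.3.3) in 1 model with a mean for each of the 10 groups, with moderated variances and a mean trend, and p-values were adjusted by Benjamini and Hochberg over all tested genes, with 0.05 as the threshold. Fold changes on this scale understate those of low genes. There were 18 comparisons: 8 with saline of the same day, saline between days, 3 differences of drug effects between days and 6 of CVAD with single drugs. The procedure was tested on simulated data with independent noise for each gene. Those data held no effects shared by the genes of a library, so the test says nothing about such effects. Pseudogene copies were found by blastn 2.17.0 of GENCODE M21 pseudogene transcripts against the coding sequences.

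Named genes were those called, the 3 of smallest p in each comparison with saline of the same day, the 5 highest and 5 lowest, the 5 most variable within groups, the untested ones, the paralogues and their parents, Rps19bp1, Fau and Rack1. Some genes that this rule takes in are not reported here. Alternatives were another pseudocount, no filter, median-ratio scaling, library quality weights, each library left out, protein-coding genes alone, a separate model per day, and, added after seeing the data, a term for libraries 1 to 8 and sums with copies.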

Additional observations from a re-analysis of the deposited data

Results flagged for a closer look

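Rps23 was picked out because the CVAD effect differed between the days by a test of the difference itself: the log2 effect against saline on day 8 minus that on day 2 was -0.62 ± 0.11 (SE, limma, adjusted p = 0.0298). The effect was 0.43 on day 2 and -0.19 on day 8, and the saline groups themselves differed by 0.27. The 2 saline groups enter this difference with the same weight as the 2 CVAD groups.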

How the results depend on the processing

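No ribosomal protein gene was called in CVAD against saline on day 2 (0, against 1, Rps23) without the filter on low values, under median-ratio scaling, with protein-coding genes alone, with the term for libraries 1 to 8 or with a separate model for the day, and the count was 0 to 1 with each library left out. For CVAD on day 8 minus day 2 it was 0 (against 1, Rps23) under scaling and with that term, and 0 to 1 with each library left out, by limma throughout. Library quality weights gave 1 gene in cyclophosphamide on day 8 minus day 2. Under scaling the medians of the day 8 minus day 2 differences were -0.026 in cyclophosphamide and -0.043 in dexamethasone. With the term for libraries 1 to 8, Rpl19 in cyclophosphamide on day 2 turned to -0.036. Where an alternative itself does not show the cause, the cause was not tested. Of 257 counts of called ribosomal protein genes under alternatives 237 were within 1.5 times the count reported, most of them 0 beside 0. The count of 1 in CVAD was kept in 4 of 14 alternatives on day 2 and in 10 of 19 for day 8 minus day 2. Of 257 medians 255 moved by less than the spread between replicates, 0.084, which is larger than most of the medians. The cyclophosphamide day 2 median thus counts as unmoved, at 0.074 and, under scaling, 0.00028. Of 340 values of named genes 320 kept direction and side of the threshold, most of them for genes not called to begin with.

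Over all genes, calls in CVAD on day 2 numbered 11, and 98 with quality weights, 2 without the filter, 0 with protein-coding genes alone, 2 with the term for libraries 1 to 8 and 1 in a separate model. For CVAD on day 8 minus day 2 they numbered 21, and 86 with weights, 36 under scaling, 11 without the filter and 1 with that term. Weights gave 50 calls in cyclophosphamide on day 2, against 3, and 42 in its day 8 minus day 2 difference, against 0. CVAD on day 8 gave 0, and 6 under scaling. Dexamethasone on day 2 gave 1, and 76 without its replicate 3. No paired analysis was possible because replicate numbers were given in accession order and pair no libraries. With 3 libraries a group the spread between them, and a depth that is unknown, limit what could be called.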
